A study of Saccharomyces cerevisiae with 18 samples.

Results

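Yeast removes peroxide and superoxide with a small set of enzymes, and 10 of their genes were followed here in cells exposed to nonylphenol, an alkylphenol formed when some surfactants degrade. The genes were TSA1, TSA2 and AHP1 (peroxiredoxins), TRX2 and TRR1 (thioredoxin and its reductase), GPX2 (a peroxidase of the glutathione peroxidase family), CTT1 and CTA1 (catalases) and SOD1 and SOD2 (superoxide dismutases). They were chosen by gene symbol from the probe annotation, with earlier results of these data known. Each was read by 1 probe set, the group of probes that reads 1 transcript. They make up 10 of the 5449 Saccharomyces cerevisiae genes (5498 probe sets) measured. All 10 probe sets are of the type the manufacturer names for a single transcript.

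The samples were 18 Affymetrix arrays, each hybridised with RNA of BY4742, a haploid laboratory strain of mating type alpha, grown in rich medium (YPD). Nonylphenol in ethanol was added in the middle of exponential growth at 1 or 5 mg/L, and controls received ethanol alone, so all groups carried the solvent. Cells were collected 120 or 180 min later, which gives 6 groups of 3 arrays, called biological replicates in the labels. Nothing in the labels says whether replicates came from separate cultures, so the p-values rest on a spread between arrays that may be partly technical. SAG1 and STE3, which are specific to alpha cells, read 11.58 and 10.02 in the 120 min controls, while URA3 and LYS2, deleted in the standard genotype of the strain, read 0.95 and 1.54, below the background level of 1.86. All values here are log2 signals as deposited, in which 1 unit is a doubling.

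Replicate arrays correlated at r between 0.994 and 0.999 over the S. cerevisiae probe sets, and 98.2 to 99.3% of these lay above background on each array. All 10 genes did so on all 18 arrays, the lowest value being 3.75 for CTA1. At 5 mg/L the 36 probe sets of the manufacturer's poly-A control transcripts read higher than in controls, by 0.78 ± 0.21 (SE) at 120 min and 0.24 ± 0.24 at 180 min. Scaled to those controls, every yeast gene in the 5 mg/L comparison moved down by these amounts. How much control RNA each sample received is not stated. RMA sets the arrays to a common distribution, so a change below is relative to the other transcripts of the same array, and in whole cultures a change in every cell and a change in some cells cannot be told apart. The log2 difference between the 3' and 5' ends of the TDH1 transcript, a sign of RNA integrity, averaged 0.44 in 120 min controls, 0.34 at 5 mg/L, 0.51 in 180 min controls and 0.27 at 5 mg/L. For ACT1 the same averages were 0.71, 0.69, 0.88 and 0.71. The part of RNA integrity in the results was not tested.

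As background, peroxiredoxins reduce hydrogen peroxide and organic peroxides with electrons from thioredoxin, which thioredoxin reductase recharges from NADPH. Catalases split hydrogen peroxide without a thiol cofactor, and superoxide dismutases turn superoxide into hydrogen peroxide. In yeast the transcription factors Yap1 and Skn7 drive many peroxiredoxin and thioredoxin genes under peroxide stress, Msn2 and Msn4 drive CTT1 under many stresses, and fatty acids such as oleate induce CTA1, whose enzyme sits in peroxisomes and mitochondria.

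On the deposited scale at 5 mg/L, TSA2 rose by 1.05 at 120 min and 1.00 at 180 min, CTA1 by 1.01 and 0.96, CTT1 by 0.57 and 0.37, AHP1 by 0.13 and 0.31, and SOD1 by 0.18 and 0.17. SOD2 fell, with changes of -0.48 and -0.56. TSA1 passed the test at 180 min (0.24) and not at 120 min, TRX2 rose and GPX2 fell at 120 min only (0.16 and -0.29), and TRR1 did not pass at either time. For none of these 4 did the difference between times pass its own test (adjusted p = 0.0774 for TSA1, 0.356 for TRX2, 0.227 for GPX2 and 0.381 for TRR1). A gene is said to have risen or fallen where limma's adjusted p was under 0.05 over all 5498 probe sets. By that rule 8 of the 10 genes were called at 120 min, 6 higher and 2 lower, against 58.1% of all probe sets (25.4% higher and 32.7% lower). At 180 min 7 of 10 were called, 6 higher and 1 lower, against 61.4% of all probe sets (27.1% higher and 34.3% lower). Most probe sets were called in either comparison, so the number of these genes called says little about them, while the share called higher, 6 of 10, was above that of all probe sets and the share called lower was below it. These shares are a description, since the genes were chosen with earlier results of these data known. The median change of the 10 genes was 0.14 at 120 min and 0.21 at 180 min, and that of all probe sets was -0.04 at both times. Scaled to the poly-A controls, the same test called 7 of the 10 at 120 min, all lower, and 2 at 180 min, 1 higher and 1 lower. Of all 5498 probe sets it then called 4278 lower and 95 higher at 120 min, and 375 lower and 175 higher at 180 min. The 7 of 10 lower at 120 min was no larger a share than that of all probe sets.

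**Figure D1:**
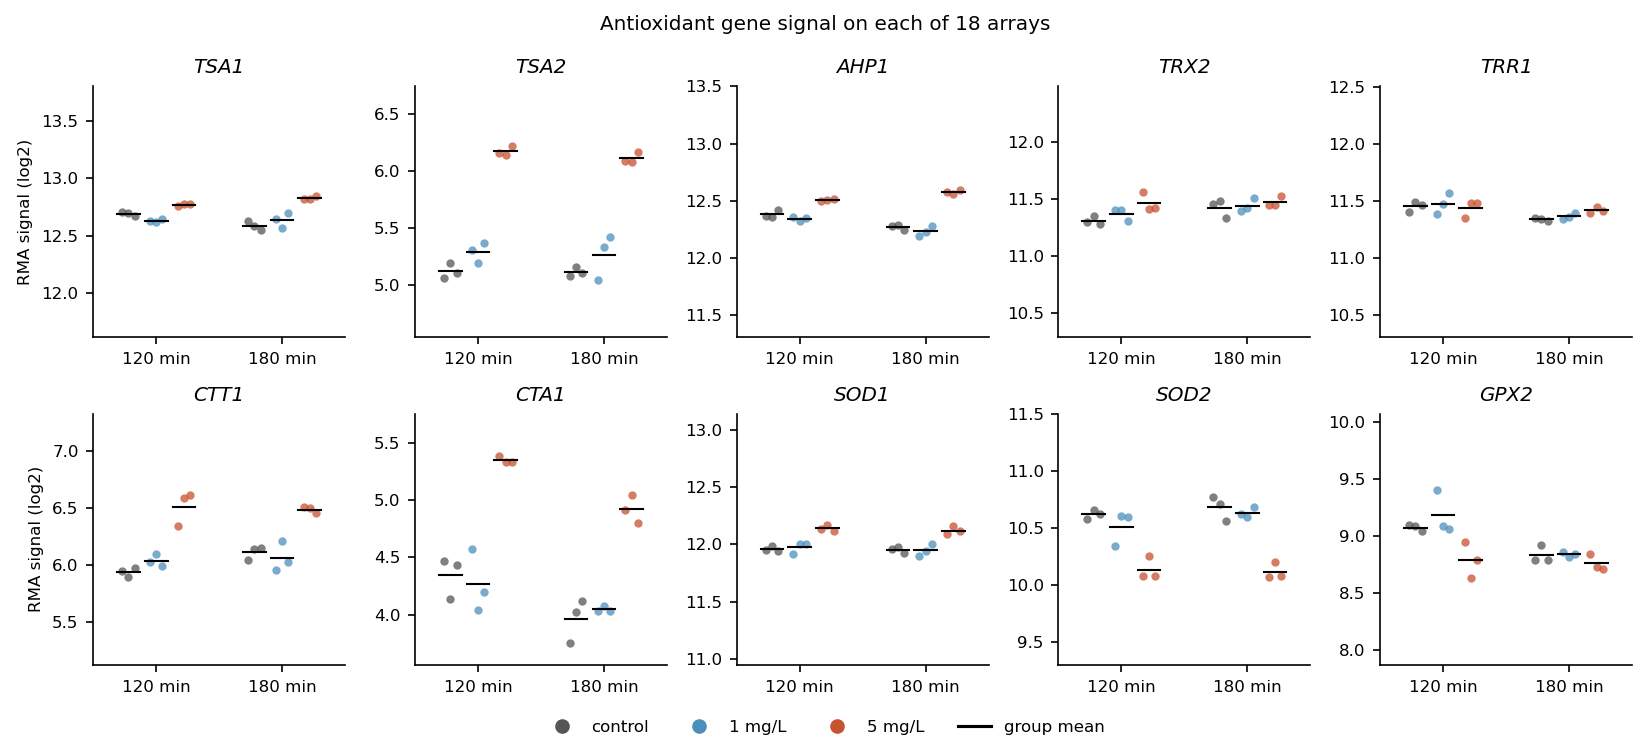
Deposited log2 signal of the 10 genes on each array, by dose and time; each point is 1 array, each bar the mean of 3, and all panels span the same number of log2 units. On this scale the 5 mg/L arrays of TSA1, TSA2, AHP1, CTT1, CTA1 and SOD1 lie above all other arrays of the same gene and those of SOD2 below them, before any poly-A scaling.

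TSA2 (YDR453C) encodes a cytosolic peroxiredoxin close in sequence to that of TSA1 and known as its stress-induced counterpart. In control arrays TSA2 read 5.06, 5.20 and 5.11 at 120 min and 5.09, 5.16 and 5.11 at 180 min. With 1 mg/L the values were 5.31, 5.19 and 5.37, then 5.04, 5.34 and 5.42. With 5 mg/L they were 6.16, 6.14 and 6.22, then 6.09, 6.08 and 6.17. All 6 arrays at 5 mg/L were above the other 12, and the 1 mg/L arrays overlapped the controls. TSA2 rose by 1.05 ± 0.08 (SE, 2.07-fold, limma adjusted p = 1.01e-08) at 120 min and by 1.00 ± 0.08 (1.99-fold, adjusted p = 1.79e-08) at 180 min. Scaled to the poly-A controls its change stayed above 0, at 0.27 (adjusted p = 0.337) and 0.76 (adjusted p = 0.0459). Its rank by size of rise on the deposited scale was 166 of 5498 at 120 min and 169 at 180 min.

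TSA1 (YML028W) encodes the main cytosolic peroxiredoxin, which also acts as a chaperone. In control arrays TSA1 read 12.70, 12.69 and 12.67 at 120 min and 12.63, 12.59 and 12.55 at 180 min. With 1 mg/L it read 12.63, 12.62 and 12.64, then 12.64, 12.57 and 12.69, and at 5 mg/L 12.76, 12.78 and 12.77, then 12.82, 12.82 and 12.85. The 5 mg/L arrays were the highest at each time, by a narrow margin at 120 min. The change at 120 min was 0.08 ± 0.04 (adjusted p = 0.123, 95% interval -0.01 to 0.17) and turned to -0.70 (adjusted p = 0.0123) on the poly-A scale. Array weights and quantile normalization called it higher, at 0.083 (adjusted p = 0.0203) and 0.12 (adjusted p = 0.0183). At 180 min TSA1 rose by 0.24 ± 0.04 (1.18-fold, adjusted p = 0.000128), against 0.01 on the poly-A scale.

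AHP1 (YLR109W) encodes a peroxiredoxin that prefers alkyl hydroperoxides. It read 12.36, 12.36 and 12.42 in the 120 min controls and 12.28, 12.28 and 12.25 in the 180 min controls. The 1 mg/L arrays read 12.36, 12.32 and 12.35, then 12.19, 12.23 and 12.28, and the 5 mg/L arrays 12.50, 12.51 and 12.52, then 12.57, 12.56 and 12.60. No array of another group reached the 5 mg/L values. At 120 min AHP1 rose by 0.13 ± 0.04 (1.09-fold, adjusted p = 0.014), a change that turned to -0.65 (adjusted p = 0.0192) on the poly-A scale; without control replicate 1 or 2 at that time the adjusted p was 0.0516 or 0.0518, and it was 0.0592 with those 2 groups fitted alone. At 180 min the rise was 0.31 ± 0.04 (1.24-fold, adjusted p = 8.14e-06), or 0.07 on the poly-A scale.

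TRX2 (YGR209C), a cytosolic thioredoxin gene under Yap1 and Skn7, changed little. TRX2 read 11.29, 11.35 and 11.28 in 120 min controls and 11.56, 11.41 and 11.42 at 5 mg/L. At 180 min the control values were 11.45, 11.48 and 11.33 and the 5 mg/L values 11.44, 11.44 and 11.52. The groups did not overlap at 120 min and overlapped at 180 min. TRX2 rose by 0.16 ± 0.06 at 120 min (1.11-fold, adjusted p = 0.0264), and this became -0.63 (adjusted p = 0.0248) on the poly-A scale. Leaving out replicate 1 or 3 of the controls, or replicate 1 at 5 mg/L, ended the call, with adjusted p = 0.0702, 0.0858 and 0.131, as did fitting those groups alone (0.0525). At 180 min the difference was 0.05 ± 0.06 (adjusted p = 0.495), or -0.19 (adjusted p = 0.639) on the poly-A scale.

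TRR1 (YDR353W), for the cytosolic thioredoxin reductase, ranged over all 18 arrays from 11.32 to 11.57. Both of its extremes were outside the 5 mg/L groups, and its highest array was at 1 mg/L. TRR1 differed from control by -0.02 ± 0.05 at 120 min (adjusted p = 0.788, 95% interval -0.13 to 0.09) and by 0.08 ± 0.05 at 180 min (adjusted p = 0.205, interval -0.03 to 0.19). On the poly-A scale the 120 min difference was -0.80 (adjusted p = 0.00469) and the 180 min difference turned to -0.16 (adjusted p = 0.702).

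GPX2 (YBR244W) encodes a peroxidase that, in yeast, draws on thioredoxin. It read 9.09, 9.08 and 9.05 in 120 min controls and 8.95, 8.63 and 8.79 at 5 mg/L, without overlap. The 1 mg/L arrays at that time read 9.40, 9.09 and 9.06, so replicate 1 stood above the rest. GPX2 fell by 0.29 on the log2 scale (SE 0.09, 1.22-fold lower, adjusted p = 0.00815), and without replicate 2 at 5 mg/L the change was -0.21 (adjusted p = 0.0533). At 180 min controls read 8.79, 8.92 and 8.79 and 5 mg/L arrays 8.85, 8.73 and 8.71. These overlapped, and the change was -0.07 ± 0.09 (adjusted p = 0.472).

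CTT1 (YGR088W), the gene of the cytosolic catalase, is a classic general stress gene. Control arrays read 5.95, 5.89 and 5.97 at 120 min and 6.04, 6.14 and 6.15 at 180 min. With 1 mg/L the values were 6.03, 6.10 and 5.99, then 5.96, 6.21 and 6.03. CTT1 at 5 mg/L read 6.34, 6.58 and 6.61, then 6.51, 6.50 and 6.45. The 5 mg/L values lay above all others, and the spread among them was wider at 120 min (SD 0.15) than at 180 min (SD 0.03). CTT1 rose by 0.57 ± 0.07 (1.49-fold, adjusted p = 3.84e-06) at 120 min, which turned to -0.21 (adjusted p = 0.456) on the poly-A scale, and by 0.37 ± 0.07 (1.30-fold, adjusted p = 0.000281) at 180 min, or 0.14 (adjusted p = 0.748) on that scale.

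CTA1 (YDR256C) encodes the catalase of peroxisomes and mitochondria. Control arrays read 4.47, 4.14 and 4.43 at 120 min and 3.75, 4.02 and 4.12 at 180 min. Arrays at 1 mg/L read 4.57, 4.04 and 4.20, then 4.04, 4.08 and 4.03. CTA1 at 5 mg/L read 5.39, 5.33 and 5.34, then 4.92, 5.05 and 4.80. The 5 mg/L arrays stood clear of the rest at each time, and CTA1 had the widest spread among replicates, with an SD of up to 0.27 at 1 mg/L. CTA1 rose by 1.01 ± 0.12 (2.01-fold, adjusted p = 2.14e-06) and by 0.96 ± 0.12 (1.94-fold, adjusted p = 3.78e-06). On the poly-A scale both changes stayed above 0, at 0.22 (adjusted p = 0.425) and 0.72 (adjusted p = 0.0579).

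SOD1 (YJR104C), for the copper and zinc enzyme of the cytosol, read 11.95, 11.99 and 11.94 in 120 min controls and 11.96, 11.98 and 11.92 in 180 min controls. SOD1 at 5 mg/L read 12.14, 12.17 and 12.12, then 12.09, 12.16 and 12.12. Means at 1 mg/L were 11.97 ± 0.05 and 11.95 ± 0.05 (SD, n = 3), near the controls, and the 5 mg/L arrays lay above all 12 others. SOD1 rose by 0.18 ± 0.04 (1.13-fold, adjusted p = 0.00254) and 0.17 ± 0.04 (1.12-fold, adjusted p = 0.00409), and both changes turned on the poly-A scale, to -0.60 (adjusted p = 0.0305) and -0.071 (adjusted p = 0.873).

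SOD2 (YHR008C), for the manganese enzyme of the mitochondrial matrix, went the other way. Control arrays read 10.58, 10.66 and 10.62 at 120 min and 10.78, 10.72 and 10.56 at 180 min. SOD2 at 1 mg/L read 10.34, 10.60 and 10.60, then 10.63, 10.60 and 10.68, and the 5 mg/L arrays 10.08, 10.26 and 10.08, then 10.07, 10.21 and 10.08. Every 5 mg/L array was below the 12 others. SOD2 fell by 0.48 on the log2 scale at 120 min (SE 0.08, 1.40-fold lower, adjusted p = 3.85e-05) and by 0.56 at 180 min (SE 0.08, 1.48-fold lower, adjusted p = 7.85e-06). It kept this direction on the poly-A scale, at -1.27 and -0.80.

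**Figure D2:**
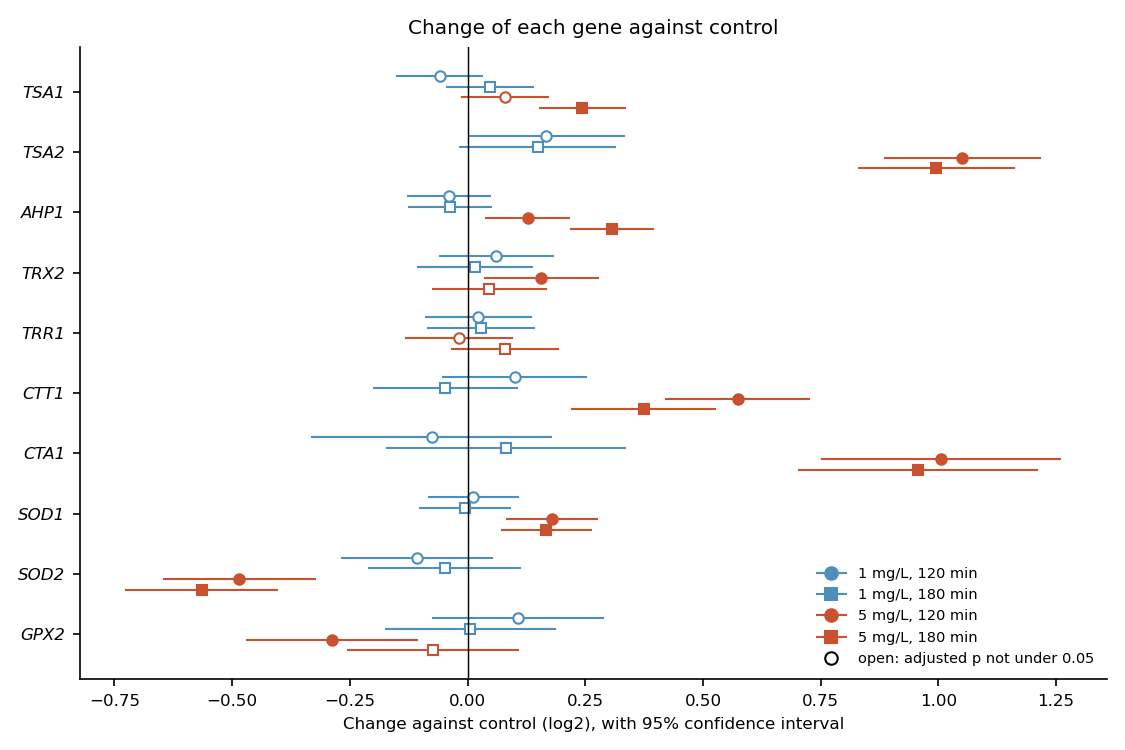
Log2 change of the 10 genes at each dose against control at 120 and 180 min on the deposited scale, with 95% intervals from limma; open symbols did not pass the test. TSA2 and CTA1 lie near 1 at 5 mg/L and SOD2 lies below 0 at both times; with poly-A scaling TSA1, AHP1, TRX2, CTT1 and SOD1 fall below 0 at 120 min, and TRX2, TRR1 and SOD1 at 180 min.

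Over both times, 7 of the 10 genes had their 6 arrays at 5 mg/L entirely above (6 genes) or below (SOD2) the other 12, compared with 34.4% of all probe sets (15.8% above and 18.6% below). TRX2, TRR1 and GPX2 overlapped. Changes also varied with signal over the whole array. Among probe sets with a 120 min control mean from 4 to 6, where TSA2, CTT1 and CTA1 lay, the median 5 mg/L change was 0.15, and from 10 upward, where TSA1, AHP1, TRX2, TRR1, SOD1 and SOD2 lay, it was -0.11. At 180 min the medians were 0.14 from 4 to 6, where TSA2 lay, and -0.12 from 10 upward. CTA1 had a 180 min control mean between 2 and 4, where the median was 0.31. CTT1 had a 180 min control mean between 6 and 8, where the median was -0.05. TSA2, CTA1, CTT1, TSA1, AHP1, TRX2, TRR1 and SOD1 exceeded the median of probe sets of like signal at both times, and SOD2 fell below it. GPX2, with control means from 8 to 10, stood at -0.29 against -0.09 at 120 min and -0.07 against -0.08 at 180 min. All of this is a description with no test.

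**Figure D3:**
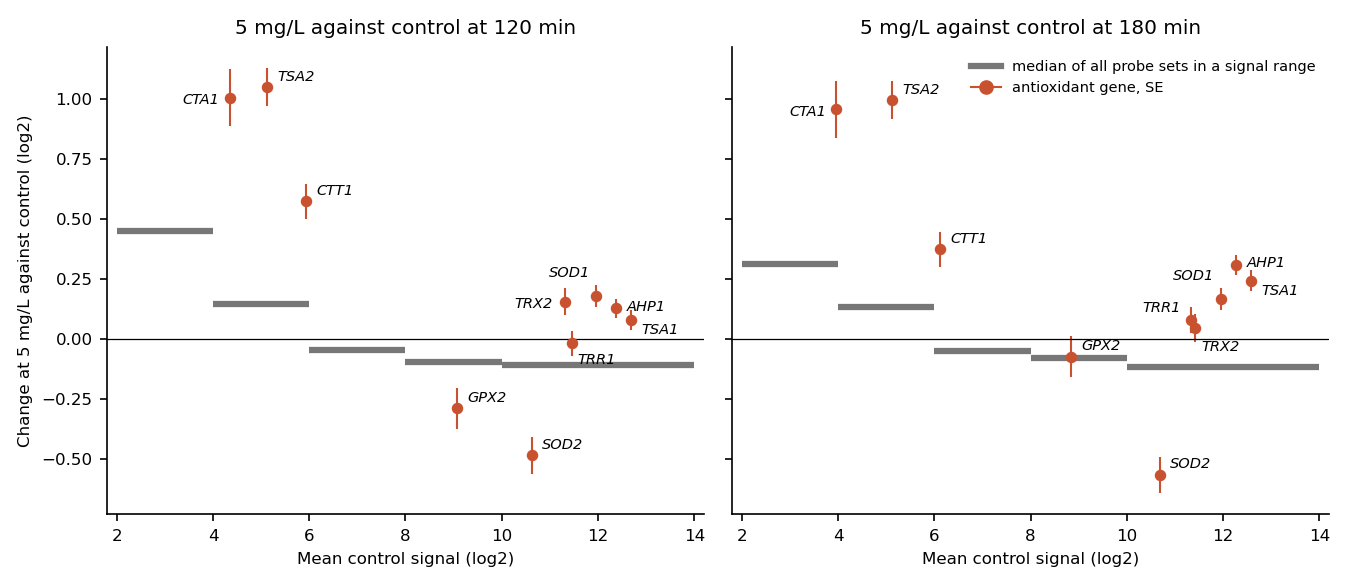
Log2 change at 5 mg/L against the mean control signal of the 10 antioxidant genes (points, with SE) on the deposited scale, with the median change of all S. cerevisiae probe sets in ranges of signal (bars). The medians run from 0.45 at control means of 2 to 4 down to -0.11 from 10 upward at 120 min. All genes but SOD2 and GPX2 lie above the median of their range at both times, and SOD2 lies below it. Poly-A scaling moves points and bars alike down, by 0.78 at 120 min and 0.24 at 180 min.

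Genes for enzymes of the same kind changed unequally, which was read within each array and so does not depend on a shift of a whole array such as the poly-A scaling. Only the change of such a difference is of use, since signals of 2 probe sets cannot be set against each other as levels. TSA2 minus TSA1 averaged -7.57 ± 0.07 (SD, n = 3) in 120 min controls and -6.60 ± 0.04 at 5 mg/L, then -7.47 ± 0.06 and -6.72 ± 0.03 at 180 min. The arrays did not overlap, and TSA2 gained 0.86 on TSA1 over both times (0.97 and 0.75). CTT1 minus CTA1 averaged 1.59 ± 0.15 and 1.16 ± 0.18 at 120 min, then 2.15 ± 0.13 and 1.56 ± 0.10 at 180 min, a mean difference of -0.51 (-0.43 and -0.58) in favour of CTA1. SOD2 minus SOD1 averaged -1.34 ± 0.03 and -2.00 ± 0.08, then -1.27 ± 0.09 and -2.00 ± 0.04, so SOD2 lost 0.70 on SOD1 (differences of -0.66 and -0.73). Each of these 3 contrasts had p = 0.005 in a two-sided exact permutation test over arrays within each time, the smallest value that its 400 arrangements allow, and 0.005 after Benjamini-Hochberg adjustment over the 3 pairs. The median change of all probe sets in the signal ranges of TSA2 and TSA1 was 0.15 and -0.11 at 120 min, and 0.14 and -0.12 at 180 min. For CTA1 and CTT1 at 180 min it was 0.31 and -0.05. The part of signal level in these contrasts was not tested, and the genes were chosen with earlier results of these data known.

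**Figure D4:**
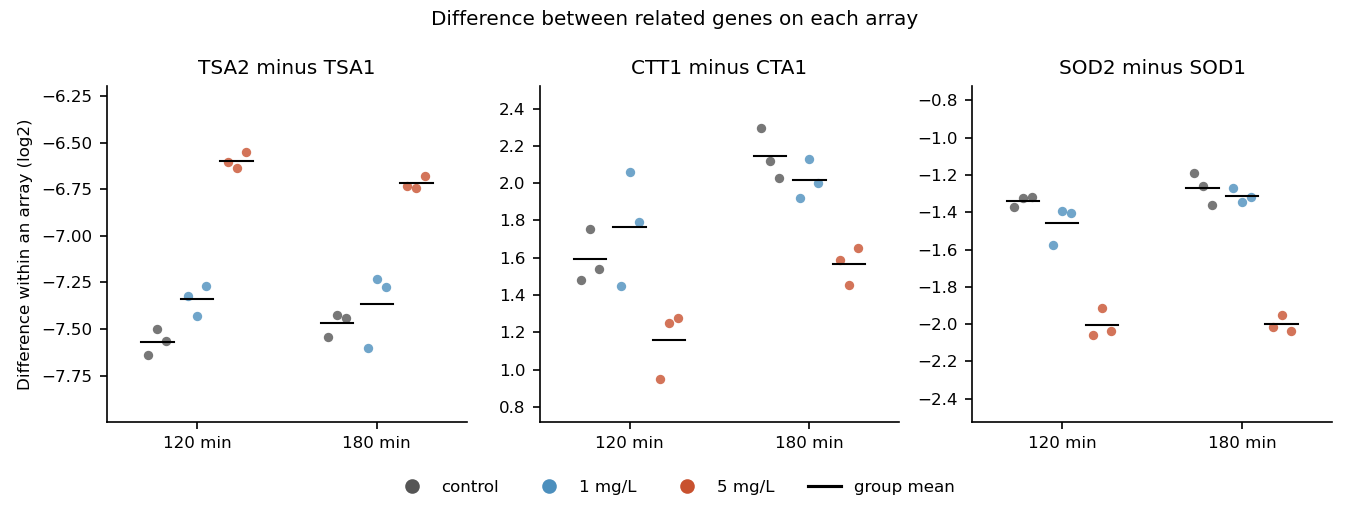
Difference in log2 signal between the members of 3 gene pairs on each array, by dose and time. At 5 mg/L the TSA2 minus TSA1 points shift up, and the CTT1 minus CTA1 and SOD2 minus SOD1 points shift down, at both times; points are single arrays, bars are means of 3, and poly-A scaling leaves these differences as they are.

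At 1 mg/L limma called none of the 10 genes at either time, against 0.455% of all probe sets at 120 min and 0.109% at 180 min. At an unadjusted p under 0.05, 1 of the 10 passed at 120 min (TSA2) and 0 at 180 min, against 4.33% and 3.6% of probe sets. TSA2 changed by 0.17 (95% interval 0.00 to 0.33) and 0.15 (-0.02 to 0.31). CTA1 had the least precise value, -0.08 (-0.33 to 0.18) and 0.08 (-0.17 to 0.34). AHP1 was -0.04 at both times, with an interval of -0.13 to 0.05 at 120 min and -0.12 to 0.05 at 180 min. At 120 min the interval of TRX2 (-0.06 to 0.18) took in its 5 mg/L change, and for every other gene called at 5 mg/L the 1 mg/L interval stopped short of the 5 mg/L estimate at the same time.

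Between the doses, 5 against 1 mg/L gave 8 of 10 called at 120 min (57.4% of all probe sets) and 7 of 10 at 180 min (59.4%). The 1 mg/L groups are a different set of arrays from the controls, while the 5 mg/L arrays are shared with the comparisons above. TSA2 differed by 0.88 ± 0.08 and 0.85 ± 0.08, and CTA1 by 1.08 ± 0.12 and 0.87 ± 0.12. SOD2 differed by -0.38 ± 0.08 and -0.52 ± 0.08. TSA1, not called against control at 120 min, was higher than at 1 mg/L by 0.14 ± 0.04 (adjusted p = 0.0109), and TRX2, called against control, was not called here (0.10 ± 0.06, adjusted p = 0.163). Both values fell below 0 on the poly-A scale, TSA1 to -0.70 and TRX2 to -0.74, as did AHP1 (-0.67), CTT1 (-0.36) and SOD1 (-0.67) at 120 min. TSA2 and CTA1 stayed above 0 there but lost their calls, at 0.047 (adjusted p = 0.869) and 0.25 (0.375). At 180 min that scaling called none of the 10, against 338 of all 5498 probe sets. With the compared arrays alone 6 of 10 were called at 120 min, TSA1 (adjusted p = 0.0863) and SOD1 (0.0563) being lost. That fit called 2645 of all 5498 probe sets, against 3156 with all arrays.

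Between the control groups, CTA1 alone was called, lower at 180 than at 120 min by a change of -0.38 ± 0.12 (adjusted p = 0.03), where 23.2% of all probe sets were called and 12.1% were lower. The call was lost without replicate 1 or 3 at 120 min or replicate 1 or 2 at 180 min, with adjusted p from 0.0644 to 0.123. GPX2 stood at -0.24 (adjusted p = 0.0516) in the same comparison. The difference between times in the 5 mg/L effect was called for AHP1 only (0.18 ± 0.06, adjusted p = 0.0479), against 15% of all probe sets, and was lost without any 1 of the 12 arrays involved. TSA1 differed by 0.16 ± 0.06 between times (adjusted p = 0.0774), and TSA2, CTA1 and SOD2 by -0.05, -0.05 and -0.08. The changes of TRX2 and GPX2 differed between times by -0.11 ± 0.08 and 0.21 ± 0.12. On the poly-A scale the differences of TSA2 (0.49), CTA1 (0.50), SOD2 (0.46) and TRX2 (0.43) turned. Those of CTT1 and SOD1, -0.20 and -0.01 as deposited, turned too (0.34 and 0.53). None of the 10 genes was called on that scale (AHP1 0.72, adjusted p = 0.255). For the 1 mg/L effect limma called 0 of 5498 probe sets between times, and 139 (2.53%) had an unadjusted p under 0.05, none of them among the 10 genes.

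The other genes of these pathways were read from lists, as counts on the deposited scale, to be read against the deposited-scale shares of all probe sets given above. At most 4 called genes of a list were named against control, so a gene named at 1 time may have changed at the other too. On the poly-A scale at 120 min the calls were 14 of 20 thiol genes, 8 of 11 regulators, 6 of 10 Yap1 targets and 10 of 14 cofactor genes lower, and 3 of 10 Msn2 and Msn4 targets and 1 Yap1 target higher. Of all 5498 probe sets that scale called 4278 lower and 95 higher, so these lower shares were not above that of all probe sets. At 180 min that scale called 2 thiol genes and 4 cofactor genes lower, 2 Msn2 and Msn4 targets, 2 Yap1 targets and 1 cofactor gene higher, and none of the regulators or oleate genes. Of all probe sets it called 375 lower and 175 higher at that time. Of 20 further genes for thiol redox and peroxide enzymes, 10 rose, 4 fell and 6 did not pass at 120 min, with a median of 0.14 (-0.64 on the poly-A scale), and 3 rose, 6 fell and 11 did not pass at 180 min, with a median of 0.01 (-0.22). GRX2, a glutaredoxin of cytosol and mitochondria, rose by 0.47 and 0.37, GPX1, a peroxidase, by 0.65 and PRX1, the mitochondrial peroxiredoxin, by 0.34 at 120 min; on the poly-A scale GRX2 (-0.31), GPX1 (-0.13) and PRX1 (-0.44) turned at 120 min. GRX3 and GRX4, glutaredoxins that handle iron signals, and GRX5, of mitochondrial iron-sulphur assembly, fell at 180 min with changes of -0.39, -0.56 and -0.49. GRX4 also fell at 120 min (-0.47). At that time GRX3 averaged 9.31 at 5 mg/L against 9.48 in controls, and GRX5 8.66 against 8.86, so both means were lower there too.

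Of 11 regulators, 4 rose and 2 fell at 120 min (median 0.12, poly-A scale -0.66), and 7 rose and 1 fell at 180 min (median 0.18, poly-A scale -0.06). PIP2, a factor that switches on oleate genes such as CTA1, rose at both times, by 0.48 (-0.30 on the poly-A scale) and 0.53. YAP1, SKN7 and HAP1, the heme-dependent factor, rose by 0.62, 0.41 and 0.28 at 180 min. SKN7 controls averaged 8.96 at 120 min and 8.47 at 180 min, and the 5 mg/L mean at 180 min was 8.87. YAP1 controls averaged 8.45 and 8.17, and its 5 mg/L mean at 180 min was 8.79. At 120 min they were not among the 4 called regulators with the smallest p, which does not mean that they were unchanged there. HAP1 then averaged 9.29 at 5 mg/L against 9.17 in controls. For SKN7 the 180 min effect minus the 120 min effect was 0.64, more than its 180 min rise. Its 5 mg/L mean at 120 min was thus below that of controls. This SKN7 change was not called, since the 2 regulators that fell were YBP1 and MSN4. For YAP1 the same difference was 0.41, less than its rise, so its 120 min mean was above control. STB5, a regulator of NADPH supply, rose by 0.30 at 120 min (-0.48 on the poly-A scale), where YBP1, the partner of Yap1, and MSN4 had changes of -0.20 and -0.40. The YBP1 and MSN4 calls were each lost without 1 of 2 arrays: control replicate 3 (adjusted p = 0.0634 and 0.0577), or at 5 mg/L replicate 3 for YBP1 (0.0518) and replicate 1 for MSN4 (0.124).

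Of 10 other Yap1 targets, 6 rose and 2 fell at 120 min (median 0.22, poly-A scale -0.56), and 4 rose and 2 fell at 180 min (median 0.13, poly-A scale -0.11). GRE2, a reductase of reactive carbonyls, rose by 1.34 ± 0.09 and 1.19 ± 0.09, and OYE2, an NADPH oxidoreductase, by 0.85 ± 0.07 and 1.01 ± 0.07. OYE3, its relative, rose by 0.78 and 0.95, the first of which was -0.0066 on the poly-A scale. ZWF1, which makes NADPH, rose by 0.27 at 180 min. YCF1, a vacuolar transporter of glutathione conjugates, had a change of -0.31 at 120 min. GRE2 was also called at 1 mg/L and 120 min (0.43, adjusted p = 0.0292), and that call was lost without replicate 1 or 3 of the controls or 1 or 2 of the treated arrays (adjusted p from 0.125 to 0.194).

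Targets of Msn2 and Msn4 other than CTT1 mostly rose, 10 of 10 at 120 min (median 0.97, poly-A scale 0.19), and 8 of 10 at 180 min with 1 lower (median 0.61, poly-A scale 0.37). The small heat shock protein gene HSP12 rose by 2.62 ± 0.13 and 1.29 ± 0.13, DDR2, a stress gene, by 2.11 and 1.91, HSP26, a chaperone gene, by 1.51 and 0.95, and DCS2, a decapping regulator, by 1.20 and 0.89. CTT1 changed less than the median of the list at each time. GPH1, glycogen phosphorylase, was called at 1 mg/L and 120 min (0.46 ± 0.06, adjusted p = 0.000886).

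Of 10 other oleate and peroxisome genes, 9 rose at 120 min (median 0.45, poly-A scale -0.33) and 5 at 180 min (median 0.23, poly-A scale -0.0039), and none fell; on the poly-A scale 1 was called lower at 120 min, and with the S. cerevisiae probe sets quantile normalized again 3 rose and 1 fell at 180 min. ECI1, for the peroxisomal breakdown of unsaturated fatty acids, rose by 0.76 and 0.53, and CAT2, carnitine acetyltransferase, by 0.59 and 0.23, with ECI1 at -0.025 and CAT2 at -0.19 on the poly-A scale at 120 min and CAT2 at -0.0094 at 180 min. POX1, acyl-CoA oxidase, rose by 1.12 at 120 min from a control mean of 2.03, close to background, and PXA1, a subunit of the fatty acyl-CoA importer, by 0.46 (-0.32 on the poly-A scale). PEX11, for peroxisome division, and POT1, thiolase, rose by 0.57 and 0.49 at 180 min. The POT1 control mean was 2.33, close to background. Among all probe sets with 180 min control means from 2 to 4 the median change was 0.31. The POT1 call was lost without control replicate 1 or 5 mg/L replicate 3 (adjusted p = 0.0722 and 0.0878).

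Among genes for the metal and heme cofactors of these enzymes more fell than rose. Of 14, 4 rose and 7 fell at 120 min (median -0.19, poly-A scale -0.98), and 2 rose and 8 fell at 180 min (median -0.19, poly-A scale -0.43). SMF1, a manganese transporter, had changes of -0.60 and -0.68, SMF2, the other such transporter, which feeds SOD2, -0.40 at 120 min, and HEM3 and HEM15 of heme synthesis -0.76 at 120 min and -0.69 at 180 min for HEM3 and -0.56 at 180 min for HEM15. CTR1, which imports copper, rose by 0.70 and 1.23 (-0.079 on the poly-A scale at 120 min). At 1 mg/L and 180 min none of the genes in the 6 lists was called.

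**Figure D5:**
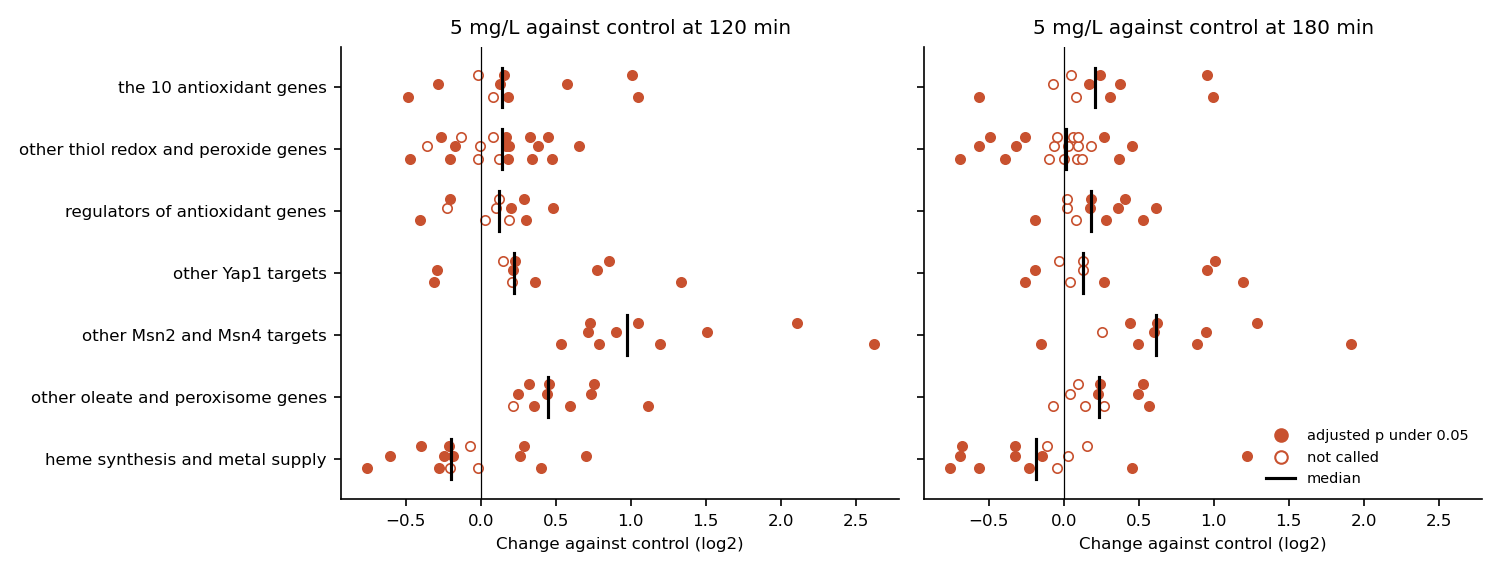
Log2 change at 5 mg/L against control, on the deposited scale, of each gene in the 10 antioxidant genes and the 6 related lists at each time; each point is 1 gene, filled where limma's adjusted p was under 0.05, and each bar the list's median. The 10 further Msn2 and Msn4 targets all lie above 0 at 120 min, around a median of 0.97, and the cofactor list has a median of -0.19 at both times; on the poly-A scale the medians of the thiol, regulator, Yap1 and oleate lists lie below 0 at both times.

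The expression pattern over the 6 groups was set against 5430 S. cerevisiae probe sets above background, by the root mean square difference between group means after centring each gene. Nearest to TSA2 were ALD4, USV1 and YML083C (0.03, 0.04 and 0.05), to TSA1 STE2, PFK27 and MED7 (0.01, 0.01 and 0.02), to CTT1 DUF1, PGC1 and GYP7 (0.03 each), and to CTA1 YIG1, MGA1 and YOR192C-C (0.08, 0.08 and 0.10). The 6 means share arrays and scaling, so likeness is a description over 6 points.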

How the data were processed

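The authors deposited RMA signals, read here as log2 values from their range of 0.41 to 13.74, since their base is not stated. RMA, affy and limma are named per the submitters' processing notes, without versions. Of 10928 probe sets, 7245 had a name in the platform annotation, and 5498 belonged to S. cerevisiae (12 symbols updated from RefSeq's gene table). The background level was the 95th percentile of other-species means.

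A group-means model was fitted over all 18 arrays (limma 3.58.1, R 4.3.3, default eBayes), and p-values were adjusted by Benjamini-Hochberg over 5498 probe sets in each comparison. Pairs of genes were tested by exact permutation. The steps were tested on simulated data. Poly-A scaling subtracted each array's mean over 36 control probe sets. From each list the called genes with the smallest p were named, up to 4 against control at 5 mg/L and up to 2 in other comparisons, the latter shown in part. The members and lists were chosen with earlier results of these data known. The number of arrays limits the precision.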

Additional observations from a re-analysis of the deposited data

Results flagged for a closer look

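The effect of 5 mg/L differed between 120 and 180 min, by limma's adjusted p for the difference itself, for 13 named genes. The naming rule sets that number, with at most 2 called genes from each list. In full, differences below 0 were called for 4 of 20 thiol genes, 5 of 10 Msn2 and Msn4 targets and 3 of 10 oleate genes. Differences above 0 were called for 2 of 11 regulators and 1 of the 10 antioxidant genes. Of 10 Yap1 targets 1 was above and 1 below 0, and of 14 cofactor genes 1 was above and 2 below. Over all probe sets 824 (15%) were called. Given as the 180 min effect minus the 120 min effect on the log2 scale, the difference was 0.18 for AHP1 (adjusted p = 0.0479), 0.64 for SKN7 (0.00635), 0.41 for YAP1 (0.0241), 0.28 for YCF1 (0.019) and 0.52 for CTR1 (0.00913). It was below 0 for HSP12 at -1.33 (0.000435), GPH1 at -0.69 (0.000177), POX1 at -0.85 (0.0277), CAT2 at -0.36 (0.019), GPX1 at -0.47 (0.0279), FLR1 at -0.47 (0.0263), GRX1 at -0.29 (0.023) and HEM15 at -0.32 (0.0307). On the poly-A scale the differences of CAT2 (0.18), FLR1 (0.072), GPX1 (0.075), GRX1 (0.25) and HEM15 (0.22) turned, none of the 13 was called, and 5 of all probe sets were called, all higher. The controls of some of these genes moved between times as well: HSP12 by 1.02, GPH1 by 0.73, POX1 by 0.59 and CTR1 by -0.56. Those of SKN7 moved by -0.49, GRX1 by 0.35, FLR1 by 0.30, CAT2 by 0.28, YAP1 by -0.27 and YCF1 by -0.17. GPX1 controls averaged 5.43 at 120 min and 5.82 at 180 min. CTR1 averaged 11.17 and 11.13 at 5 mg/L against 10.47 and 9.91 in controls, so mainly its controls moved. For GRX1 the same means were 9.85 and 9.91 against 9.66 and 10.01. For HEM15, at 7.97 and 7.77 against 8.22 and 8.33, the 5 mg/L mean moved more. Calls for AHP1, GPX1, GRX1, FLR1, HEM15, YAP1, POX1, YCF1 and CAT2 were lost without at least 1 of the arrays, with adjusted p up to 0.126 for AHP1 without replicate 3 of the 120 min controls.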

How the results depend on the processing

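Poly-A scaling turned the direction of called results and of some not called. On the deposited scale TSA1 against control and TRX2 against 1 mg/L, both at 120 min, were not called (limma adjusted p = 0.123 and 0.163). At 5 mg/L against control at 120 min it gave TSA1 -0.70, AHP1 -0.65, TRX2 -0.63, CTT1 -0.21, SOD1 -0.60, CAT2 -0.19, CTR1 -0.079, ECI1 -0.025, GPX1 -0.13, GRX2 -0.31, OYE3 -0.0066, PIP2 -0.30, PRX1 -0.44, PXA1 -0.32 and STB5 -0.48, and at 180 min SOD1 -0.071 and CAT2 -0.0094, and, among genes not called, TRX2 -0.19 and TRR1 -0.16. Against 1 mg/L at 120 min it gave TSA1 -0.70, AHP1 -0.67, TRX2 -0.74, CTT1 -0.36, SOD1 -0.67, CAT2 -0.37, ECI1 -0.025, GRX2 -0.40, PIP2 -0.22 and STB5 -0.56, and at 180 min SOD1 -0.016. For the difference between times it gave CAT2 0.18, FLR1 0.072, GPX1 0.075, GRX1 0.25 and HEM15 0.22, and 5 probe sets called against 824. Over all probe sets it called 95 higher and 4278 lower at 120 min and 175 higher and 375 lower at 180 min, against 1398 and 1796, and 1489 and 1885. The antioxidant genes called at 180 min were 2 against control and 0 against 1 mg/L. The cause was not tested.

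The count of antioxidant genes called between controls, 1, became 2 with the replicate block, 7 with array weights, 3 with trend and robust eBayes, 0 with poly-A scaling, 2 with quantile normalization and 3 with the compared arrays alone, and 0 to 1 with 1 array left out. For the difference between times at 5 mg/L, 1 became 0 with the replicate block, 3 with array weights, 2 with trend and robust eBayes, 0 with poly-A scaling, 0 with quantile normalization and 0 with any 1 array left out. At 5 mg/L against control at 120 min, leaving out 1 array gave 6 to 8 of 10, array weights and quantile normalization 9, and the compared arrays alone 6. Of all 5498 probe sets, leaving out 1 array called 2842 to 3035, against 3194 in the main fit. Array weights called 3981 of them, quantile normalization 3201 and the compared arrays alone 3213, so the counts of all probe sets moved with the setting too. Array weights raised the probe sets called at 1 mg/L from 25 to 252 and from 6 to 106, with no antioxidant gene among them. Array weights called 2861 between controls (main count 1278) and 2203 for the difference between times (824). Leaving out 1 array gave 646 to 1149 and 403 to 1160. Between controls the compared arrays alone called 2217, the replicate block 1292, trend and robust eBayes 1333, quantile normalization 1308 and poly-A scaling 1. For the difference between times the replicate block called 868, trend and robust eBayes 880 and quantile normalization 807. Replicate numbers were not treated as pairs: all 3 same-number correlations passed 0.1 in 1 of 15 group pairs, the 120 min controls and 1 mg/L arrays (0.25, 0.41 and 0.37), where the replicate block called 26 probe sets against 25 and none of the 10 genes. Over all pairs the correlations ran from -0.45 to 0.52, and 12 of 18 arrays correlated best with their own number. The replicate block called 3197 probe sets at 120 min and 3397 at 180 min at 5 mg/L, against 3194 and 3374.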
